A study of Homo sapiens with 9 samples.

Results

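The dual-specificity MAP kinase phosphatases are enzymes that switch off MAP kinases, and 10 of their genes, taken by symbol, were followed here: DUSP1, DUSP2, DUSP4, DUSP5, DUSP6, DUSP7, DUSP8, DUSP10, DUSP14 and DUSP16. They are 10 of the 62710 genes in the deposited count table and 10 of the 17412 genes with enough reads to be tested, so no member was lost to the filter on low counts. RNA came from wild-type HT-29 cells, a human colorectal adenocarcinoma line with epithelial features that served as a model of the intestinal epithelium. The 3 conditions had 3 libraries each: non-stimulated cells, cells given ADP-heptose at 500 ng/mL and cells given flagellin at 500 ng/mL, both stimuli for 2.5 h. ADP-heptose is a sugar nucleotide that bacteria make on the way to lipopolysaccharide and that host cells sense through the kinase ALPK1, and flagellin is the protein of bacterial flagella and the ligand of TLR5. The question for these genes was which of them changed in RNA after either stimulus, and whether the stimuli differed.

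MAP kinases (the ERK, JNK and p38 families) are active when a threonine and a tyrosine in their activation loop carry phosphate, and a dual-specificity phosphatase removes both. The family is commonly sorted by location and preferred kinase. DUSP1, DUSP2, DUSP4 and DUSP5 are nuclear enzymes whose genes are typically inducible, DUSP6 and DUSP7 are cytoplasmic and prefer ERK, and DUSP8, DUSP10 and DUSP16 prefer JNK and p38. DUSP14 is a small enzyme that lacks the MAP kinase-binding domain of the others. Many of these genes are themselves known as targets of MAP kinase signalling, which makes them a textbook example of negative feedback.

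The libraries held 30770448 to 58272772 counts, with more in each ADP-heptose library (50054773 or more) than in any other (38304035 or fewer). ADP-heptose replicate 3 stood apart from replicates 1 and 2: over 12168 genes its log2 CPM differed from theirs with an SD of 0.38, compared with 0.13 between those 2 libraries and 0.17 to 0.20 within the other groups. Results that rest on it are therefore also given without it. Of 10 markers of colon epithelium, 9 were expressed well enough to be tested, and their summed level was 8679 to 9097 CPM (counts relative to the library total, scaled by TMM) in non-stimulated cells, 8904 to 9278 after flagellin and 9513 to 13381 after ADP-heptose. The caudal homeobox genes among them were scarce. CDX1 had 0 counts in every non-stimulated and flagellin library and 4 to 12 in the deeper ADP-heptose libraries. CDX2 had 35 to 48 counts per non-stimulated library, 18 to 43 after flagellin and 17 to 41 after ADP-heptose, and was not called. KRT20 was the only epithelial marker called higher after ADP-heptose (log2 fold change 0.40, edgeR adjusted p = 0.000941). The top of the summed range, 13381 CPM, belonged to ADP-heptose replicate 3. Of the epithelial markers KRT8 and KRT18 varied most after ADP-heptose, at 5179 ± 1167 and 2150 ± 668 CPM (mean ± SD, n = 3), and were not called. Summed leukocyte markers measured 0.0557 to 0.215 CPM without stimulation, 0.0852 to 0.285 after flagellin and 0.552 to 1.28 after ADP-heptose, where every library was above the other 6. ITGAM, alone among these 5 markers, had enough counts to be tested, and only through the ADP-heptose libraries. It had 0 to 6 counts per non-stimulated library, 2 to 8 after flagellin and 23 to 59 in the deeper ADP-heptose libraries. Its mean level was 0.0537, 0.120 and 0.824 CPM in that order. It was called higher (edgeR adjusted p = 0.0121, and 0.0482 against flagellin). Because that same group let it pass the filter, the call is not independent of the filter. CD3E and PTPRC, which define T cells and leukocytes, had no count above 2 in any library. Summed fibroblast markers lay at 12.5 to 14.7, 12.6 to 16.1 and 16.9 to 19.1 CPM in the same order. COL1A1, the only tested marker of these 4, was called higher after ADP-heptose (log2 fold change 0.41, adjusted p = 0.0311), while COL1A2 and DCN were at 0 in every library. The endothelial markers summed to 0.190 CPM or less. Whether these marker levels have a part in the results was not tested.

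ADP-heptose raised 5 of the 10 phosphatase RNAs and lowered 1. DUSP1, DUSP5, DUSP10, DUSP8 and DUSP16 were 6.76-fold, 5.35-fold, 4.63-fold, 3.47-fold and 2.21-fold higher than in non-stimulated cells, and DUSP6 fell by 21.3%. DUSP2, DUSP4, DUSP7 and DUSP14 did not pass the test. All p-values are adjusted over the 17412 genes with the Benjamini-Hochberg method after edgeR's quasi-likelihood F test, and a gene was called at an adjusted p under 0.05. By this rule 7.48% of all genes were higher and 4.42% lower after ADP-heptose, and 2.89% were called at least 2-fold higher, which holds for the same 5 members. The median log2 fold change was 0.62 over the 10 members and 0.01 over all genes tested. The members were chosen with earlier results of these data known, so these shares and medians are a description and not a test. Each p-value sets a difference against the spread between these libraries, which edgeR estimates with help from the other genes tested. A comparison of 3 against 3 libraries cannot give an exact permutation p under 0.1 for a single gene.

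**Figure D1:**
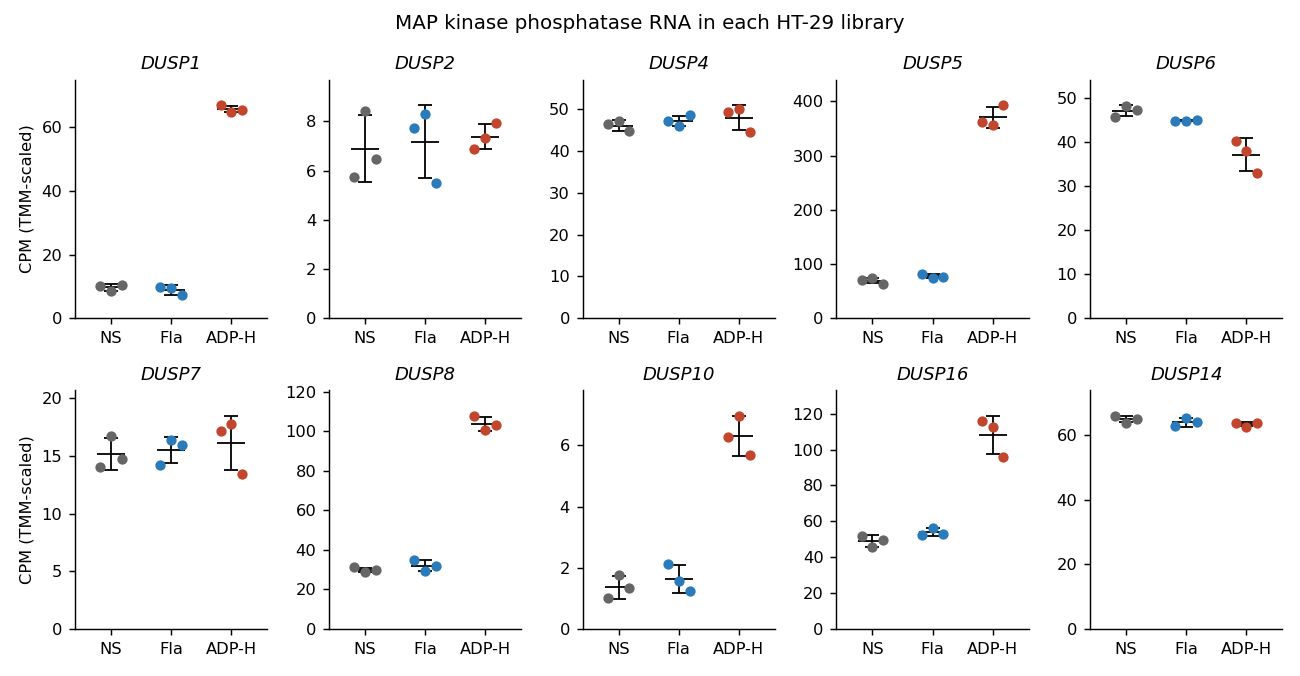
Levels of the 10 phosphatase RNAs in CPM (TMM-scaled, vertical axis from 0) in each of the 9 libraries, grouped as non-stimulated (NS), flagellin (Fla) and ADP-heptose (ADP-H), with replicates 1 to 3 from left to right, and the mean and SD (n = 3) in black. In DUSP1, DUSP5, DUSP8, DUSP10 and DUSP16 all 3 ADP-heptose libraries lie above the other 6 libraries, and in DUSP6 all 3 lie below them.

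Of the 4 nuclear enzymes, DUSP1 and DUSP5 rose, while DUSP2 and DUSP4 did not pass the test. DUSP1 (chromosome 5, 172768090 to 172771195, minus strand, GRCh38) acts on p38 and JNK as well as ERK and is a well-known immediate-early gene. Its level was 10.3, 8.52 and 10.4 CPM in the non-stimulated libraries, 9.85, 9.60 and 7.22 CPM after flagellin and 66.9, 64.9 and 65.4 CPM after ADP-heptose. The ADP-heptose libraries were far from the rest and close to each other, while the flagellin and non-stimulated libraries overlapped. The log2 fold change over non-stimulated cells was 2.76 (standard error 0.12, 95% interval 2.499 to 3.02, adjusted p = 1.04e-08), the largest of the family.

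DUSP1 is also 1 of the 2 members whose promoter held a cAMP response element (CRE), the palindrome bound by CREB and ATF family factors, so these stretches are shown. Promoters were the 250 bases before the transcription start in RefSeq (GRCh38.p14), in which 8 of the 10 members, with 9 start sites, were found. DUSP4 and DUSP5 are missing from the table. The letters searched on both strands were TGACGTCA for the full element and TGACGTC for its first part, which every full element also contains. The DUSP1 stretch is chr5:172771293-172771387 and the DUSP8 stretch chr11:1572318-1572409, both on the minus strand and written 5′ to 3′, with the matches in capitals.
DUSP1: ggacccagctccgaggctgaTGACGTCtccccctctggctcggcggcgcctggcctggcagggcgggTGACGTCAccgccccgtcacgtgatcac
DUSP8: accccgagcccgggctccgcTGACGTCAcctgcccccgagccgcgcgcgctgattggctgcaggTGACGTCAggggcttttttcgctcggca
In DUSP1 the matches begin 172 and 125 bases before the start, and only the nearer one is a full element. A TATAAA stretch follows at 30 bases before the start. In DUSP8 2 full elements begin 118 and 74 bases before the start. The full element was present in 1.65% of 35116 human promoter windows of the same length, the shorter part in 3.12% and TATAAA in 10.7%. None of the other 6 members found held either form of the element, and among the risen members DUSP10 and DUSP16 had none in their windows. No member's window held the AP-1 element TGANTCA (6.57% of promoters), the NF-kB element (5.21%) or the CArG box (1.16%). A match is a description of the letters and not evidence of binding.

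DUSP5 (chromosome 10, 110497838 to 110511544, plus strand) is selective for ERK, which it also anchors in the nucleus. It measured 70.2, 73.7 and 63.7 CPM in non-stimulated cells, 81.9, 74.9 and 75.7 CPM after flagellin and 362, 357 and 393 CPM after ADP-heptose. The ADP-heptose libraries were far above the other 6, and every flagellin library lay slightly above every non-stimulated one. The rise after ADP-heptose was 2.42 on the log2 scale (standard error 0.08, interval 2.25 to 2.59, adjusted p = 8.66e-10). This was the smallest adjusted p of the family, on 17493 to 20124 counts per ADP-heptose library.

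DUSP2 (chromosome 2, 96143166 to 96145440) is best known from activated leukocytes and DUSP4 (chromosome 8) as a nuclear phosphatase for ERK and JNK. DUSP2 measured 5.76, 8.41 and 6.49 CPM without stimulation, 7.75, 8.29 and 5.51 CPM after flagellin and 6.88, 7.34 and 7.93 CPM after ADP-heptose. The 3 groups overlapped, and the log2 difference of ADP-heptose from non-stimulated cells was 0.10 (interval −0.27 to 0.47, adjusted p = 0.743). DUSP4 measured 46.4, 47.1 and 44.7 CPM without stimulation, 47.2, 46.0 and 48.5 CPM after flagellin and 49.2, 50.1 and 44.5 CPM after ADP-heptose. It too overlapped throughout, with a log2 difference of 0.06 (interval −0.10 to 0.21, adjusted p = 0.655), so a rise of the size seen in DUSP1 or DUSP5 lies outside the interval of both genes. The direction of these small differences, and of that of DUSP7, turned to negative when libraries were scaled by their totals, under which the median over all genes was −0.13.

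Of the cytoplasmic ERK phosphatases, DUSP6 fell and DUSP7 did not pass the test. DUSP6 (chromosome 12, 89347232 to 89353271, minus strand) is the classical ERK feedback phosphatase. Its level was 45.8, 48.2 and 47.2 CPM in non-stimulated cells, 44.7, 44.8 and 45.0 CPM after flagellin and 40.3, 37.96 and 32.9 CPM after ADP-heptose. All 3 ADP-heptose libraries were below all 6 others, with replicate 3 the lowest. The log2 fold change was −0.34 (standard error 0.08, interval −0.52 to −0.17, adjusted p = 0.0151). In RNA from whole cultures, fewer cells of a type and less RNA per cell cannot be told apart. Without ADP-heptose replicate 3 the fall was smaller, at −0.26, and still called (adjusted p = 0.00165). The call was lost without non-stimulated replicate 2 (adjusted p = 0.0655), without non-stimulated replicate 3 (0.0641) and in a fit of only the 6 libraries compared (0.0635). An antisense gene, AC024909.2, shares 1875 bases (40.5%) of the DUSP6 exons and had at most 10 counts in any library. Whether the counting was strand-specific is not given in the sources used here, and the part of the overlap in the DUSP6 values was not tested.

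DUSP7 (chromosome 3, 52048919 to 52056550) is the close relative of DUSP6. Its level was 14.1, 16.7 and 14.7 CPM without stimulation, 14.2, 16.4 and 15.99 CPM after flagellin and 17.2, 17.8 and 13.4 CPM after ADP-heptose. ADP-heptose replicate 3 was the lowest of all 9 libraries while replicates 1 and 2 were the highest. The log2 difference was 0.09 (interval −0.17 to 0.35, adjusted p = 0.675).

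The 3 phosphatases that prefer JNK and p38 all rose. DUSP8 (chromosome 11, 1554044 to 1571920, minus strand) measured 31.1, 28.8 and 29.7 CPM in non-stimulated cells, 34.7, 29.2 and 31.9 CPM after flagellin and 107.7, 100.5 and 103 CPM after ADP-heptose. The ADP-heptose libraries were again well clear of the other 6, and the rise was 1.80 on the log2 scale (standard error 0.08, interval 1.62 to 1.97, adjusted p = 1.31e-08). It is the other gene with the CRE stretches printed above.

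DUSP10 (chromosome 1, 221701424 to 221742176, minus strand) restrains JNK and p38 in innate immune responses. It was scarce, with 39 to 63 counts per non-stimulated library against 257 to 393 after ADP-heptose. In CPM this was 0.998, 1.75 and 1.34 without stimulation, 2.13, 1.56 and 1.23 after flagellin and 6.29, 6.97 and 5.67 after ADP-heptose. The groups separated only for ADP-heptose, and the rise was 2.21 on the log2 scale (standard error 0.23, adjusted p = 3.1e-05). Its interval, 1.71 to 2.71, was the widest among the members.

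DUSP16 (chromosome 12, 12474210 to 12562383, minus strand), a JNK phosphatase that shuttles between nucleus and cytoplasm, measured 51.9, 45.5 and 49.4 CPM in non-stimulated cells, 52.4, 56.4 and 52.7 CPM after flagellin and 116, 113 and 96.1 CPM after ADP-heptose. The lowest ADP-heptose library was well above the highest of the other 6. The rise of 1.14 on the log2 scale (standard error 0.09, interval 0.96 to 1.33, adjusted p = 2e-06) was the smallest of the 5 rises, and its interval lay wholly below those of the other 4 risen genes. Those of DUSP1 and DUSP5 lay above that of DUSP8, while that of DUSP10 overlapped the intervals of DUSP1, DUSP5 and DUSP8.

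DUSP14 (chromosome 17, 37489831 to 37513501, plus strand), the small phosphatase, had the smallest differences of the 10 in all 3 comparisons. It measured 65.9, 64.0 and 65.2 CPM without stimulation, 62.7, 65.4 and 64.0 CPM after flagellin and 63.8, 62.7 and 63.7 CPM after ADP-heptose. The ADP-heptose libraries all lay just below the non-stimulated ones. The log2 difference of −0.04 had an interval of −0.17 to 0.10 (adjusted p = 0.749).

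Leaving out ADP-heptose replicate 3 hardly moved the rises. The log2 fold changes became 2.76 for DUSP1, 2.38 for DUSP5, 1.81 for DUSP8, 2.29 for DUSP10 and 1.23 for DUSP16. Against the mean of replicates 1 and 2, replicate 3 was lower by −0.38 in DUSP7, −0.25 in both DUSP6 and DUSP16, −0.22 in DUSP10 and −0.16 in DUSP4 (log2 CPM), and higher by 0.13 in DUSP5 and 0.16 in DUSP2. DUSP1, DUSP8 and DUSP14 differed by −0.01, −0.02 and 0.01.

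After flagellin 0 of the 10 RNAs passed the test. By the same rule 0.368% of all genes were higher and 0.0115% lower after flagellin, and 0.212% were called at least 2-fold higher. Every member had an adjusted p of 1 in edgeR, with 0 members at an unadjusted p under 0.05. DESeq2 also called 0, with 1 member, DUSP5, at an unadjusted p under 0.05. The median log2 fold change of the members was 0.05, against 0.00 for all genes.

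The size of change that remains possible after flagellin follows from the intervals. DUSP5 came closest to a change, at 0.16 on the log2 scale (interval −0.002 to 0.33, unadjusted p = 0.0528 in edgeR's model), with all flagellin libraries above the non-stimulated ones. DUSP16 was likewise above in all libraries (0.14, interval −0.05 to 0.33) and DUSP6 below (−0.07, interval −0.25 to 0.11). The values were −0.12 for DUSP1, 0.10 for DUSP8 and 0.28 for DUSP10, whose interval of −0.26 to 0.83 was the widest. All 10 intervals excluded a 2-fold change in either direction.

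**Figure D2:**
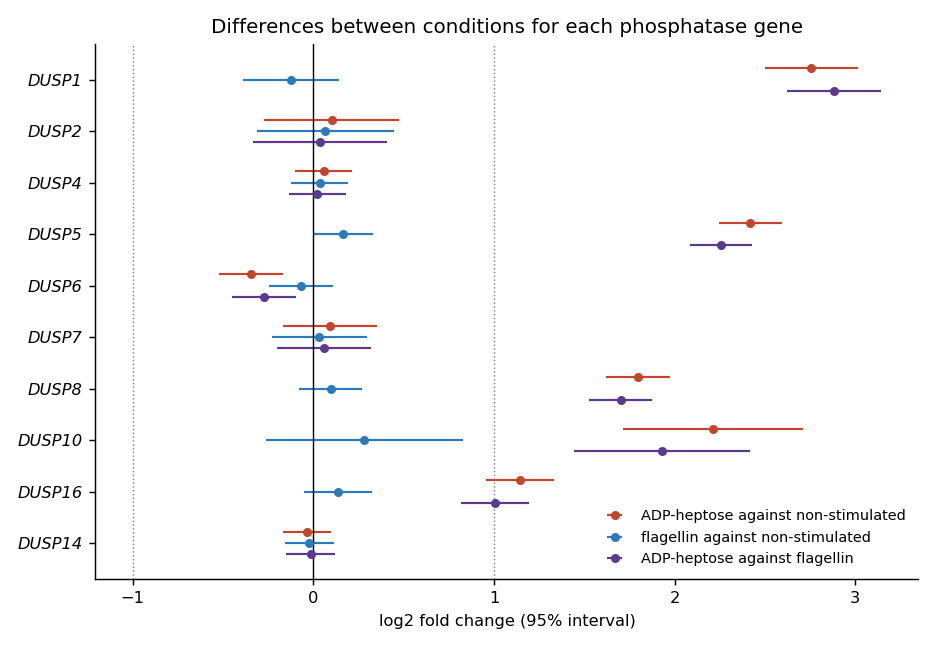
Log2 fold changes (horizontal axis) with 95% intervals for each phosphatase in the 3 comparisons, from 1 edgeR fit of all 9 libraries, with dotted lines at a 2-fold change. The 5 risen genes stand apart from 0 in both comparisons of ADP-heptose (2.76 and 2.88 for DUSP1), while all flagellin intervals lie inside the dotted lines.

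The direct comparison of the stimuli gave the same 5 rises. DUSP1 was 7.37-fold, DUSP5 4.78-fold, DUSP10 3.81-fold, DUSP8 3.25-fold and DUSP16 2.01-fold higher after ADP-heptose than after flagellin. Of all genes, 5.4% were higher and 2.76% lower in this comparison, and 2.06% were called at least 2-fold higher. The log2 differences were 2.88 (standard error 0.12, adjusted p = 1.16e-08), 2.26 (0.08, 2.4e-09), 1.93 (0.22, 0.000119), 1.70 (0.08, 3.37e-08) and 1.01 (0.09, 8.59e-06) in that order. This comparison shares the ADP-heptose libraries with the one above, so they are not independent of each other. The members' median was 0.53 and that of all genes 0.01.

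DUSP16 and DUSP6 lay near a threshold here. The difference in DUSP16 was at the 2-fold line (interval 0.82 to 1.196) and fell to 0.89 with library totals as the scaling, and it also went under the line without ADP-heptose replicate 1 or 2 or flagellin replicate 1 or 3, as low as 0.95. DUSP6 was lower after ADP-heptose than after flagellin in all libraries, at −0.28 (interval −0.45 to −0.10), and missed the threshold with an adjusted p of 0.062. It passed in DESeq2 (0.0307), with library totals (0.0242), without ADP-heptose replicate 1 (0.0444) and without ADP-heptose replicate 3 (0.034). DUSP2, DUSP4, DUSP7 and DUSP14 had log2 differences of 0.04, 0.02, 0.06 and −0.01, with adjusted p from 0.822 to 0.927.

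Because a longer transcript collects more reads, levels were compared between genes only per kilobase of exon (RPKM, with exon lengths from GENCODE 29). In non-stimulated cells DUSP5 (26.5 ± 1.94 RPKM, mean ± SD, n = 3) and DUSP14 (26.0 ± 0.395) led and overlapped each other. DUSP6 (10.2), DUSP16 (8.55), DUSP8 (6.47), DUSP4 (6.35), DUSP1 (4.81), DUSP2 (3.56), DUSP7 (2.69) and DUSP10 (0.468) followed. Besides the leading pair, DUSP8 overlapped with DUSP4 and DUSP1 with DUSP2 among neighbours in this order. After flagellin the order by mean was the same, with DUSP5 (29.6) now clear of DUSP14 (25.6), and with DUSP6 and DUSP16, DUSP8 and DUSP4, DUSP1 and DUSP2, and DUSP2 and DUSP7 overlapping.

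After ADP-heptose the order was different. DUSP5 stood at 141.6 ± 7.47 RPKM, well above DUSP1 (32.6), DUSP14 (25.4), DUSP8 (22.5) and DUSP16 (18.9). DUSP6 (7.999), DUSP4 (6.61), DUSP2 (3.82), DUSP7 (2.86) and DUSP10 (2.16) came after them, and of these neighbours only DUSP7 and DUSP10 overlapped. DUSP1 thus moved from rank 7 to rank 2 and DUSP6 from rank 3 to rank 6. The RPKM of the 10 genes summed to 95.5 ± 1.89 in non-stimulated cells, 99.2 ± 2.33 after flagellin and 264 ± 4.70 after ADP-heptose. DUSP5 made up 26.1% to 29.1%, 28.8% to 30.9% and 52.2% to 55.9% of that sum.

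**Figure D3:**
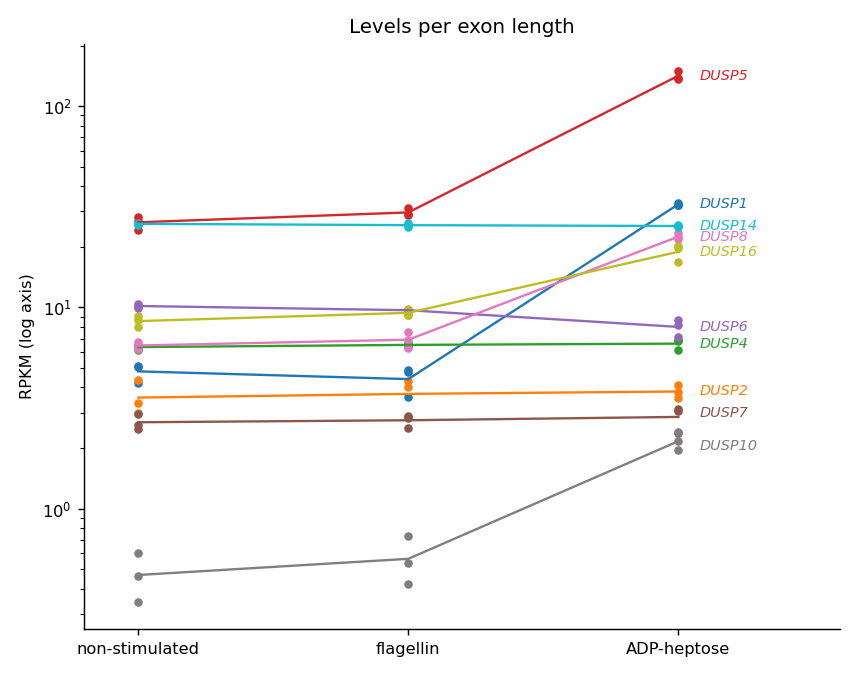
RPKM of the 10 phosphatases (logarithmic vertical axis) in the 3 conditions. Points are libraries and lines join group means. DUSP5 rises from 26.5 to 141.6, DUSP1 crosses 5 other genes on the way from rank 7 to rank 2, and DUSP10 stays lowest on average in each condition.

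Across the 9 libraries, the log2 CPM of DUSP1, DUSP5, DUSP8, DUSP10 and DUSP16 were correlated with each other at Pearson r of 0.94 to 0.996, and DUSP6 with each of them at −0.90 to −0.83. These are descriptions of 9 points that share 3 conditions, and any gene raised or lowered by ADP-heptose scores high on them. The 3 genes closest to DUSP1 among 12168 genes were MIR23AHG (listed under ENSG00000267519, 0.997), NEDD9 (0.995) and PPP1R15A (0.992). PPP1R15A, a regulatory subunit of protein phosphatase that acts in the stress response, was also among the closest to DUSP8 (0.998), together with the kinase gene PIM3 (0.998) and JUN (0.997). Nearest to DUSP5 were AREG, which encodes the EGF receptor ligand amphiregulin, GDF15 and the cytokine gene CLCF1, each at 0.998.

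DUSP10 lay nearest to the long noncoding RNA LUCAT1 (0.988), SFPQ (0.988) and TFG (0.983), and DUSP16 to MIDN (0.997), the death receptor gene TNFRSF10B (0.997) and ANKLE2 (0.996). For the falling DUSP6 the closest genes were DAB2 (0.992), TFDP2 (0.991) and LRRC8D (0.989). The members that did not pass the test had weaker best matches in part, from DUSP2 with LXN (0.894) and DUSP14 with DTNB (0.942) to DUSP4 with RNF6 (0.970) and DUSP7 with RAB10 (0.981).

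For the MAP kinases themselves, the substrates of these phosphatases, 0 changes were called in the fit of all 9 libraries. Of 10 MAP kinase genes 9 were tested, and after ADP-heptose 0 rose and 0 fell by edgeR's test (median 0.05 on the log2 scale). MAPK3, of the ERK family, had a value of 0.10 (adjusted p = 0.591), the JNK genes MAPK8 and MAPK9 0.08 (0.608) and −0.18 (0.176), and the p38 gene MAPK14 −0.25 (0.151). MAPK10 had at most 8 counts per library. Without ADP-heptose replicate 2, MAPK9 and MAPK14 were called lower, and with library totals MAPK9 and MAPK13. Between the stimuli 0 of the 9 passed, while without ADP-heptose replicate 3 MAPK7 and MAPK8 were called higher after ADP-heptose than after flagellin. After flagellin 0 of the 9 passed.

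Among 20 kinases upstream of the MAP kinases, all tested, 3 were higher and 2 lower after ADP-heptose, with a median of 0.03, beside 7.48% and 4.42% of all genes. MAP2K3, an activator of p38, rose from 82.2 ± 0.242 to 199 ± 16.9 CPM (log2 fold change 1.28, adjusted p = 3.11e-07). MAP3K8, the kinase that links NF-kB signalling to ERK, rose by 0.92 (1.04e-05) and MAP3K11 by 0.63 (0.00359). MAP3K4 fell by 0.38 (0.00572). MAP2K6, the other p38 activator, fell by 0.45 (0.043), a call that was lost in 9 of 16 alternatives. Without ADP-heptose replicate 3 the count was 5 higher and 2 lower. Against flagellin the same 3 were higher, MAP3K11 losing its call in 9 alternatives, and only MAP3K4 was lower, losing it in 7. Of all genes 5.4% were higher and 2.76% lower there. After flagellin 0 of the 20 passed against non-stimulated cells. MAP2K3 (0.31, adjusted p = 0.302) and MAP3K8 (0.31, 0.433) passed without ADP-heptose replicate 3, and MAP2K3 also in DESeq2 and with only the 6 libraries compared.

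Other phosphatase genes were taken from 2 further lists, the first by family and the second by action on MAP kinases. Genes of the first list need not act on MAP kinases. From a list of 20 further dual-specificity phosphatases 18 were found and 11 tested, and 0 rose or fell in any of the 3 comparisons by edgeR's test, beside 7.48% of all genes higher and 4.42% lower after ADP-heptose. DUSP3, which acts on ERK and JNK, came nearest, at 73.7 ± 2.58 CPM in non-stimulated cells and 86.2 ± 4.73 after ADP-heptose (log2 fold change 0.23, adjusted p = 0.0513). It was called in DESeq2, and together with STYX without ADP-heptose replicate 3. DUSP9, the remaining cytoplasmic ERK phosphatase, had 0 counts in every library, as had DUSP21 and DUSP29. Of 11 phosphatases of other classes that act on MAP kinases 8 were tested, and 2 rose after ADP-heptose, beside the same 7.48% of all genes. They were PPP2CB (0.32, adjusted p = 0.00632) and PPP2R2A (0.31, 0.00784), a catalytic and a regulatory subunit of protein phosphatase 2A. The same 2 genes were higher than after flagellin, beside 5.4% of all genes. In that comparison PPP2CB lost its call in 9 of 16 alternatives and PPP2R2A in 4. Both calls against non-stimulated cells were lost with library totals, and PPP2R2A also without non-stimulated replicate 1. Flagellin gave 0 calls among the 8.

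The genes listed as typically induced by ERK signalling moved in both directions. ERK activity itself was not measured in these RNA data, and which pathway moved these genes was not tested. Of 20 such genes, all tested, 12 were higher and 2 lower after ADP-heptose (median 1.11 on the log2 scale), beside the 7.48% and 4.42% of all genes. This list was chosen with earlier results of these data known, so its share is a description and not a test. The transcription factor gene ATF3 rose from 12.6 ± 0.410 to 205 ± 6.78 CPM (log2 fold change 4.02, adjusted p = 9.5e-12) and the early-response gene IER3 from 19.9 ± 0.666 to 226 ± 8.22 CPM (3.50, 9.5e-12). The AP-1 genes FOSB, FOSL1, JUN and JUNB rose by 2.91, 2.64, 2.07 and 1.80 and EGR1 by 1.95, while FOS rose by only 0.54 (adjusted p = 0.00112). EGR2, IER2 and PHLDA1 rose by 2.91, 1.34 and 0.89, and EGR3 went from 1 to 4 counts per non-stimulated library to 36 to 39. With 0 to 4 counts per flagellin library, EGR3 passed the low-count filter only through the ADP-heptose libraries. The 12 rises were called in all 16 alternatives, and without ADP-heptose replicate 3 the count was 13 higher and 3 lower.

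As with DUSP6, levels of 2 genes of this list fell. SPRY2, which encodes an inhibitor of receptor signalling to ERK, fell by 0.71 (adjusted p = 1.98e-05). The transcription factor gene ETV5 fell by 0.30 (0.0127), which was not called without non-stimulated replicate 1 or 2 or with only the 6 libraries compared. SPRY4, SPRED1, SPRED2 and ETV4, of the same families, did not pass the test (0.28, 0.01, −0.15 and 0.06), nor did MYC (−0.14, adjusted p = 0.211) or CCND1 (−0.02, 0.874). After flagellin 1 of the 20 was higher, IER3 by 0.38 (adjusted p = 0.0453), with a median of 0.08. That call was lost in 10 of 16 alternatives, including each left-out library but ADP-heptose replicate 3. Against flagellin, ADP-heptose gave 12 higher and 3 lower, beside 5.4% and 2.76% of all genes, the latter 3 being SPRY2, ETV5 and MYC (−0.24, adjusted p = 0.0463). Of these 3, SPRY2 was the only one still called in all 16 alternatives.

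**Figure D4:**
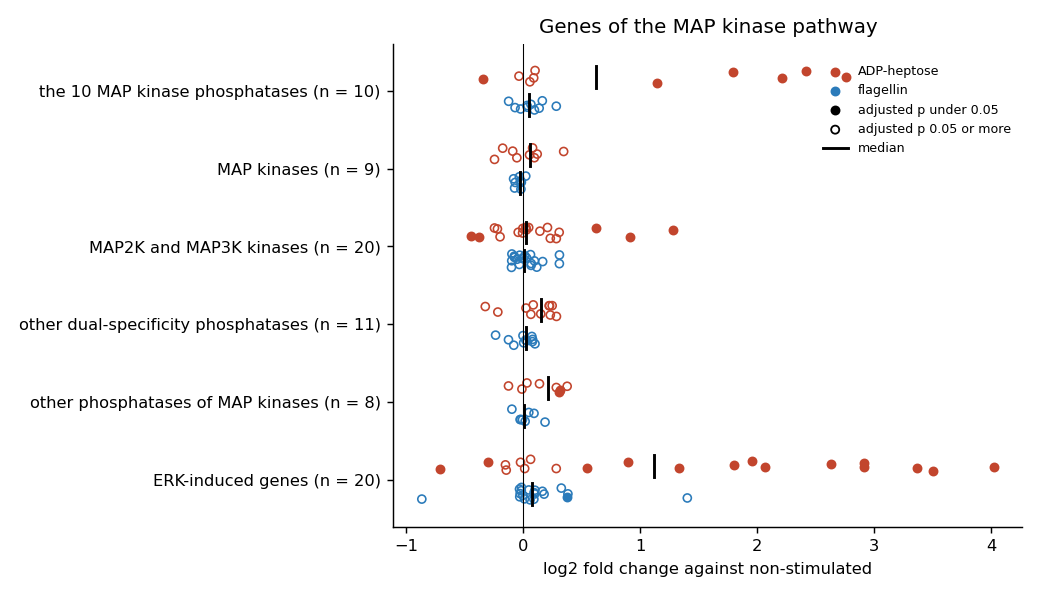
Log2 fold changes against non-stimulated cells (horizontal axis) of the tested genes of each list after ADP-heptose (red) and flagellin (blue). Filled points have an adjusted p under 0.05 and black bars are list medians. After ADP-heptose the medians are 0.62 for the phosphatases, 1.11 for the list named ERK-induced genes and 0.05 for the MAP kinases. Which pathway moved the genes of a list was not tested. After flagellin IER3 is the only filled point. The members and lists were chosen with earlier results of these data known.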

How the data were processed

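Poly(A)-enriched RNA of 9 HT-29 libraries was sequenced as paired reads of 150 bases. The authors aligned the reads with HISAT2 and deposited raw counts per gene from featureCounts, 1 column per library. Versions, genome build, annotation and strandedness are not given in the sources used here. Of 62972 lines, 232 identifiers were repeated with identical counts and kept once, leaving 62710. Samples were grouped by their labels.

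Counts were fitted in 1 model of all 9 libraries with edgeR 4.0.16 in R 4.3.3 (TMM, filterByExpr, robust quasi-likelihood F test, Benjamini-Hochberg over 17412 genes). CPM were TMM-scaled. Standard errors were taken from the log2 fold change and its F. The 2-fold threshold follows the study. In simulated counts the fit recovered 86 of 99 planted 2-fold changes and 98 of 101 planted 4-fold changes, with 9 false calls. No simulated library stood apart as ADP-heptose replicate 3 did, so the simulation does not cover that feature of the data. Positions and exon lengths came from GENCODE 29 (GRCh38), which may differ from the authors' annotation. Depth was 30770448 to 58272772 counts per library.

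The members and all lists were chosen with earlier results of these data known. Named genes are the members, the genes of the lists, and the 3 genes with the highest Pearson r to each member among those whose mean log2 CPM reached 1. Alternatives were DESeq2 1.42.0 size factors and its Wald test, library totals, no filter, a minimum mean count of 10, only the 6 libraries compared, a replicate block and leaving out every library once. Running them on the list counts was decided after seeing the data. Plots used matplotlib 3.10.9 (Python 3.11.15).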

Additional observations from a re-analysis of the deposited data

How the results depend on the processing

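Under 16 alternatives, the 5 rises after ADP-heptose kept their direction and stayed past the threshold in both comparisons, with adjusted p of at most 0.00158, and flagellin moved no member past it. Of the recomputed log2 fold changes of members, 456 kept their direction and side, 3 were weaker, 4 stronger and 17 reversed, all 17 in members that were not called. With library totals, which moved the median of all genes to −0.13 after ADP-heptose, DUSP2, DUSP4 and DUSP7 turned to −0.0346, −0.0752 and −0.0390 against non-stimulated cells and to −0.0852, −0.0948 and −0.0563 against flagellin, and calls over all genes went from 1302 higher and 770 lower to 917 and 1886. Leaving out each library in turn gave −0.0137 to 0.268 for DUSP2 after ADP-heptose and −0.0567 to 0.233 after flagellin, −0.0196 to 0.107 for DUSP7 after flagellin, and, between the stimuli, −0.119 to 0.152 for DUSP2, −0.0119 to 0.0836 for DUSP4, −0.0177 to 0.184 for DUSP7 and −0.0278 to 0.00400 for DUSP14. The cause was not tested. A replicate block left 6 members called after ADP-heptose, 0 after flagellin and 5 between the stimuli, while calls over all genes after ADP-heptose went to 1064 higher and 523 lower. The paper speaks of 3 independent experiments, and the labels do not say whether equal numbers mark the same one. Pairing by number was not visible. Of 9 same-numbered pairs 2 had deviations correlated over 0.1 (range −0.38 to 0.22), and 2 of 9 libraries correlated best with their own number. With 3 libraries per group and ADP-heptose replicate 3 standing apart, this check cannot exclude pairing. DUSP10 had the fewest counts and the widest intervals of the members.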
